A study of Mus musculus with 18 samples.

Results

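The 9 genes described here are 4 fibroblast growth factors (Fgf2, Fgf7, Fgf10 and Fgf18), 3 of their receptors (Fgfr1, Fgfr2 and Fgfr3), hepatocyte growth factor (Hgf) and its receptor Met. They were chosen by symbol from the 32285 genes counted in mouse skin, and all 9 had a row in each of the 10 mRNA libraries. Every mouse was operated on: the back skin was cut near the tail and forceps opened a subcutaneous path towards the neck. In the expanded arm (EXP) a swelling hydrogel expander was then stitched in place under the skin, and in the control arm (CTRL) nothing was inserted, so that the presence of an implant and the stretch it causes cannot be told apart. Skin cells were taken 1, 2 or 4 days later, sorted as living (DAPI-negative) cells and measured by droplet-based 3′ mRNA sequencing. Each arm had 5 libraries: day 1 in sequencing rounds 1 and 2, day 2 in rounds 1 and 2, and day 4 in round 1. The mice of 1 arm and round were pooled into 1 library, and strain, age and sex were not given in the sources used here. The remaining 8 of the 18 samples describe antibodies that tag the cells of each mouse, and their counts lie in the mRNA libraries.

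Fibroblast growth factors are secreted ligands that bind receptor tyrosine kinases together with heparan sulfate and signal through the ERK cascade. In skin, Fgf7 (keratinocyte growth factor) and Fgf10 are made by mesenchymal cells and act on the epithelial splice form of Fgfr2, while Fgf2 acts widely on fibroblasts and endothelium and lacks a classical secretion signal. Fgf18 is known from the hair follicle, where it is linked to the resting phase of the hair cycle. Hgf is a mesenchymal ligand activated by proteolysis, and its receptor Met drives epithelial migration and growth. Counting at the 3′ end does not separate the splice forms of the receptors.

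On mouse build GRCm38 (mm10), with GENCODE gene models, the ligand genes lay at chr3:37348346-37410108 for Fgf2, chr2:126034658-126091185 for Fgf7, chr13:118669791-118792115 for Fgf10, chr11:33117430-33147400 for Fgf18 and chr5:16553495-16620152 for Hgf. The receptor genes lay at chr8:25513654-25575718 for Fgfr1, chr7:130162451-133123350 for Fgfr2, chr5:33721674-33737068 for Fgfr3 and chr6:17463800-17573980 for Met. Fgf18 and Fgfr2 are on the minus strand and the others on the plus strand. Promoter windows from RefSeq (GRCm38.p6) were found for 8 of the 9 genes, 10 windows in all, and the 250 bases before each start were searched on both strands.

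The windows of Fgf7 and Fgfr2 are shown because both genes fell in fibroblast-like cells of the expanded arm, and a short stretch of the Met window because Met rose in macrophage- or monocyte-like cells. The sequences run 5′ to 3′ on the gene's strand, and capitals mark a matched motif, the CCAAT box in Fgf7 and the AP-1 motif in Met.
Fgf7, chr2:126034408-126034657, plus strand: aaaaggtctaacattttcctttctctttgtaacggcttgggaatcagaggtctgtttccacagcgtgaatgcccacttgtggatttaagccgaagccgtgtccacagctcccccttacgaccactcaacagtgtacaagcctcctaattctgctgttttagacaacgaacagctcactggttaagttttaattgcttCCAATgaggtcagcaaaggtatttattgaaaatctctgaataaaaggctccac
Fgfr2, chr7:130266809-130267058, minus strand: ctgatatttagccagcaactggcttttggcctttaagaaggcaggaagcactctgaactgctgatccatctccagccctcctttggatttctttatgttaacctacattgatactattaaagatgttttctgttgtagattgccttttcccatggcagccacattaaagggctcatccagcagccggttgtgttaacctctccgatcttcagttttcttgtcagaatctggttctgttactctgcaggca
Met, chr6:17463893-17463920, plus strand: gttgcccggcTGAGTCAcgggccgggca
The CCAAT box of Fgf7 began 53 bases before the start, and 33.8% of 32851 windows of the same length held a CCAAT box. The AP-1 motif of Met (TGANTCA) began 54 bases before the start, and 6.75% of the windows held one. Met also held 3 GC boxes (GGGCGG), a motif in 32.7% of the windows. The printed Met stretch lies in the first, non-coding exon of the GENCODE model. The printed Fgfr2 window precedes the RefSeq start and lies inside the GENCODE gene, downstream of the outermost start of that model at 133123350. Fgf2, Fgf10 and Fgf18 held 1 GC box each, and Fgfr3 held 3 GC boxes and 1 CCAAT box in its first window and 2 GC boxes in its second. The TATA box (TATAAA, 12.4% of windows), the CRE (TGACGTCA, 1.55%), the ETS motif (CCGGAAGT, 2.88%) and the STAT motif (TTCNNNGAA, 7.02%) matched in none of the 10 windows, and Fgfr2 and Hgf matched none of the 7 motifs. A match describes the letters of the window only.

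After filtering, 45965 cells remained, 28743 of CTRL and 17222 of EXP, with 1890 to 8006 cells and 17726739 to 75470722 gene counts per library. Counts are unique molecular identifiers (UMIs), and levels are given as CPM, the gene's UMIs in the summed cells scaled to the same total in every sample, with the SD over libraries. Of 36 clusters, 29 were named into 16 classes from marker lists, and each class name stands for cells that are like that type by those markers. The 7 unnamed clusters held 4888 cells and are given by number and leading genes. The make-up of the libraries differed between arms: fibroblast-like cells were 37.7% ± 10.9 of the cells of a CTRL library and 11.9% ± 6.83 in EXP, basal keratinocyte-like cells 5.08% ± 1.80 and 13.7% ± 8.93, macrophage- or monocyte-like cells 10.9% ± 2.15 and 16.3% ± 11.6, and neutrophil-like cells 0.387% ± 0.242 and 7.74% ± 5.62 (n = 5 each). Any 2 libraries shared at most 18 cell barcodes, and at most 0.413% of those of the smaller library.

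Each gene had its own pattern over cell classes, and levels are compared here within a gene only. In CTRL libraries Fgf7 stood at 151 ± 42.9 CPM (SD, n = 5) in dermal papilla-like cells, the mesenchymal cells at the base of the follicle, followed by fibroblast-like cells at 71.0 ± 12.8 CPM and cluster 11 (Tnn, Tnfrsf11b, Coch) at 61.5 ± 31.8. The range of dermal papilla-like cells did not overlap that of fibroblast-like cells, and that of cluster 11 overlapped both. Fgf10 was at 41.3 ± 13.6 CPM in dermal papilla-like cells and 34.8 ± 11.3 in cluster 11, followed by fibroblast-like cells at 14.4 ± 4.69. The highest fibroblast-like library (22.3) lay below every library of cluster 11 and just above the lowest of dermal papilla-like cells (22.0). The 2 ligands were near 0 in basal keratinocyte-like cells, where Fgf7 was at 0.994 ± 0.964 CPM and Fgf10 at 0.229 ± 0.329.

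Fgf2 was highest in Schwann-like cells at 48.1 ± 15.4 CPM (n = 4), followed by dermal papilla-like cells at 33.2 ± 9.29, and neighbouring classes overlapped down to fibroblast-like cells at 15.4 ± 1.65. Fgf18 was at 13.3 ± 9.61 CPM in smooth muscle-like cells and 5.77 ± 4.45 in basal keratinocyte-like cells. By share of its UMIs in a CTRL library, these held 11.0% ± 10.0 and 18.7% ± 14.5, and fibroblast-like cells held 45.9% ± 19.2. Of the 233 Fgf18 UMIs of fibroblast-like cells in CTRL, 146 lay in 829 cells of 1 fibroblast-like cluster (cluster 20: Lgi2, Gpx3). Hgf in CTRL was at 17.8 ± 7.40 CPM in lymphatic endothelial-like cells (45 UMIs in 528 cells) and 14.9 ± 5.44 in cluster 21 (Smim41, Apod, Ccl11; 34 UMIs in 452 cells), and these ranges overlapped. Mast cell-like cells stood at 18.7 ± 10.7 CPM from only 10 UMIs in 363 cells, so that their place is not resolved at this depth. T cell-like cells held 1 Hgf UMI in 1537 cells.

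Among the receptors, Fgfr1 was at 482 ± 70.9 CPM in dermal papilla-like cells, 416 ± 93.9 in cluster 11 and 303 ± 23.4 in cluster 21, with a gap in range to the next, mast cell-like cells at 201 ± 70.4, and it was lowest in T cell-like cells at 5.61. Fgfr2 was at 98.5 ± 11.5 CPM in dermal papilla-like cells, 88.0 ± 22.7 in cluster 29 (Krt25, Krt28, Krt27, keratins of the inner root sheath; n = 4), 66.9 ± 16.4 in basal keratinocyte-like cells and 52.8 ± 7.24 in fibroblast-like cells, each range overlapping the next. Fgfr3 was at 35.5 ± 3.45 CPM in cluster 29, 29.5 ± 14.3 in basal and 26.3 ± 13.6 in suprabasal keratinocyte-like cells (n = 4), with overlapping ranges. Met was at 90.3 ± 91.8 CPM in melanocyte-like cells (n = 4), an average raised by 1 library at 226 CPM, at 36.1 ± 10.5 in basal keratinocyte-like cells, 35.7 ± 17.2 in cluster 29 and 35.2 ± 8.19 in suprabasal keratinocyte-like cells. The ligands Fgf7 and Fgf10 were thus highest in mesenchymal classes, while Fgfr2 was high there, in cluster 29 and in basal keratinocyte-like cells.

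**Figure D1:**
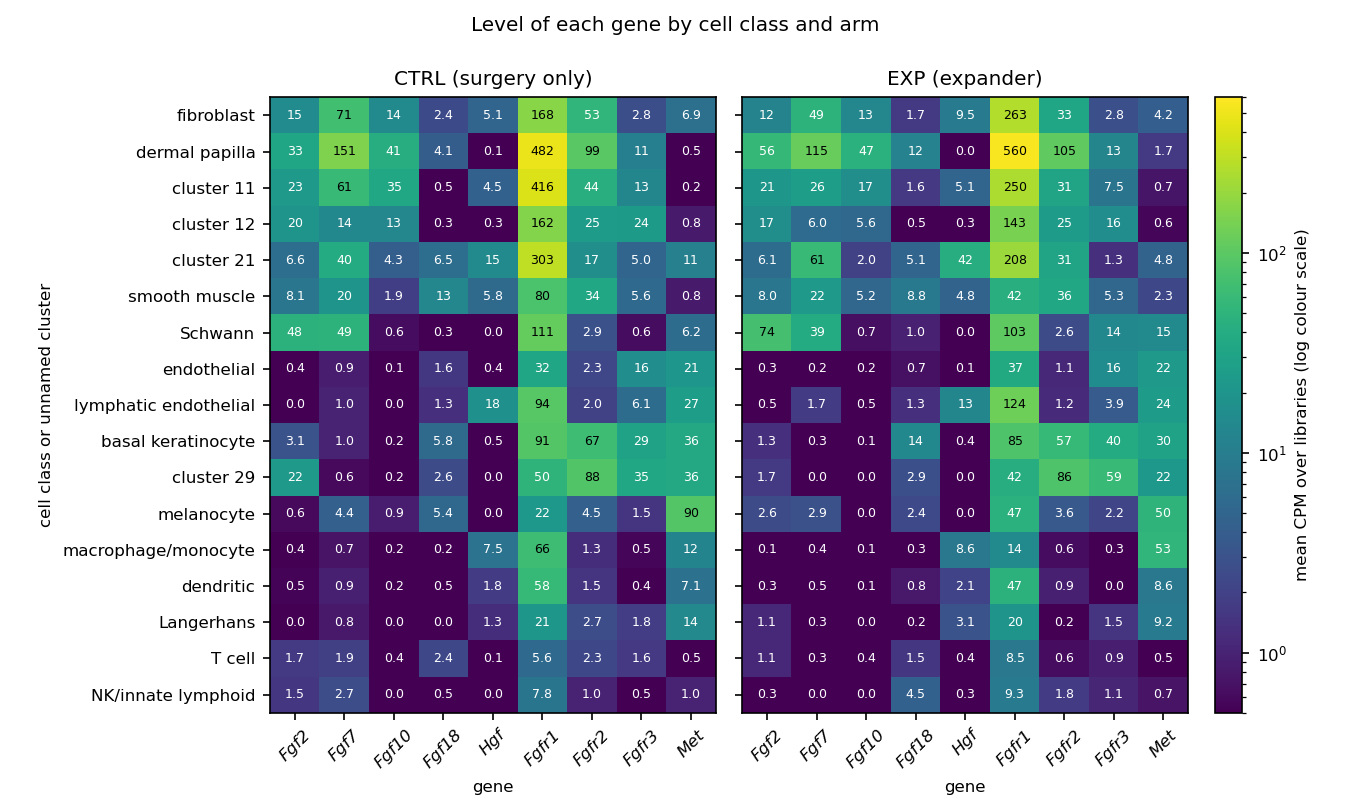
Mean level of the 9 genes (columns, CPM over 4 or 5 libraries, log colour scale) in the 17 cell classes and unnamed clusters that had enough cells for a test (rows), in CTRL on the left and EXP on the right. Fgf7 stands at 151 CPM in dermal papilla-like cells of CTRL and at 71.0 in fibroblast-like cells, and Met in macrophage- or monocyte-like cells at 12.1 in CTRL and 53.5 in EXP.

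In whole libraries, where all cells were summed, 7 of the 9 genes passed the test between arms (adjusted p at most 0.05), against 26.4% of the 16518 genes tested. Fgf7 was at 46.6, 32.8, 43.1, 39.4 and 47.2 CPM in the CTRL libraries (day 1 rounds 1 and 2, day 2 rounds 1 and 2, day 4) and at 17.1, 7.56, 14.7, 18.2 and 18.9 in EXP. The arms did not overlap, and the log2 fold change was -1.67 ± 0.25 (SE) with an adjusted p of 0.00293. Fgf10, Fgf2, Fgfr2 and Fgfr1 were also lower, with log2 differences of -1.09 ± 0.20, -0.87 ± 0.15, -0.86 ± 0.19 and -0.56 ± 0.11 (SE) and adjusted p of 0.00635, 0.00485, 0.0111 and 0.00765. Met and Fgfr3 rose by 0.73 ± 0.22 and 0.58 ± 0.19, with adjusted p of 0.0351 and 0.0463. Leaving out 1 library at a time ended the Fgfr3 call in 9 of 10 fits (adjusted p 0.0124 to 0.109) and the Met call in 7 of 10 (0.0128 to 0.0948). After thinning each cell to 2000 UMIs, Fgf10, Fgf2, Met and Fgfr3 missed the threshold (adjusted p 0.0913, 0.0519, 0.0584 and 0.304) and Hgf and Fgf18 passed it (0.0398 and 0.0414). Hgf and Fgf18 differed by 0.77 and 0.55 with adjusted p of 0.0684 and 0.106.

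These differences are those of mixed cells, in which fewer cells of a type and less RNA per cell cannot be told apart. Fibroblast-like cells held 69.9% to 91.7% of the Fgf7 UMIs of a CTRL library and 27.9% to 74.9% in EXP. For Fgfr2 they held 64.6% ± 13.2 and 22.9% ± 13.2, while basal keratinocyte-like cells held 11.1% ± 4.70 and 42.1% ± 16.2. For Met the macrophage- or monocyte-like cells held 8.46% ± 3.45 in CTRL and 40.6% ± 27.1 in EXP. For Hgf the fibroblast-like cells held 60.7% ± 7.16 in CTRL and 22.0% ± 21.6 in EXP, and macrophage- or monocyte-like cells 15.5% ± 5.49 and 17.4% ± 10.1. The comparisons within classes follow.

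Within 17 classes and clusters with enough cells, 58 of 153 gene-by-class pairs passed the filter on low counts and 9 passed the test, 1 higher and 8 lower in EXP. They fell in 4 classes or clusters: fibroblast-like cells, cluster 11, smooth muscle-like cells and macrophage- or monocyte-like cells. Of all genes tested there, 34.5%, 9.08%, 19.5% and 25.4% were called, in that order. In the other 13, edgeR called 0 of 37 pairs, of which 10 had an unadjusted p under 0.05, and DESeq2 called 2. Where a member was tested in these, edgeR called from 0.0772% (Schwann-like) to 15.2% (dendritic-like) of all genes. In the T cell-like and the NK or innate lymphoid-like class no member passed the filter.

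**Figure D2:**
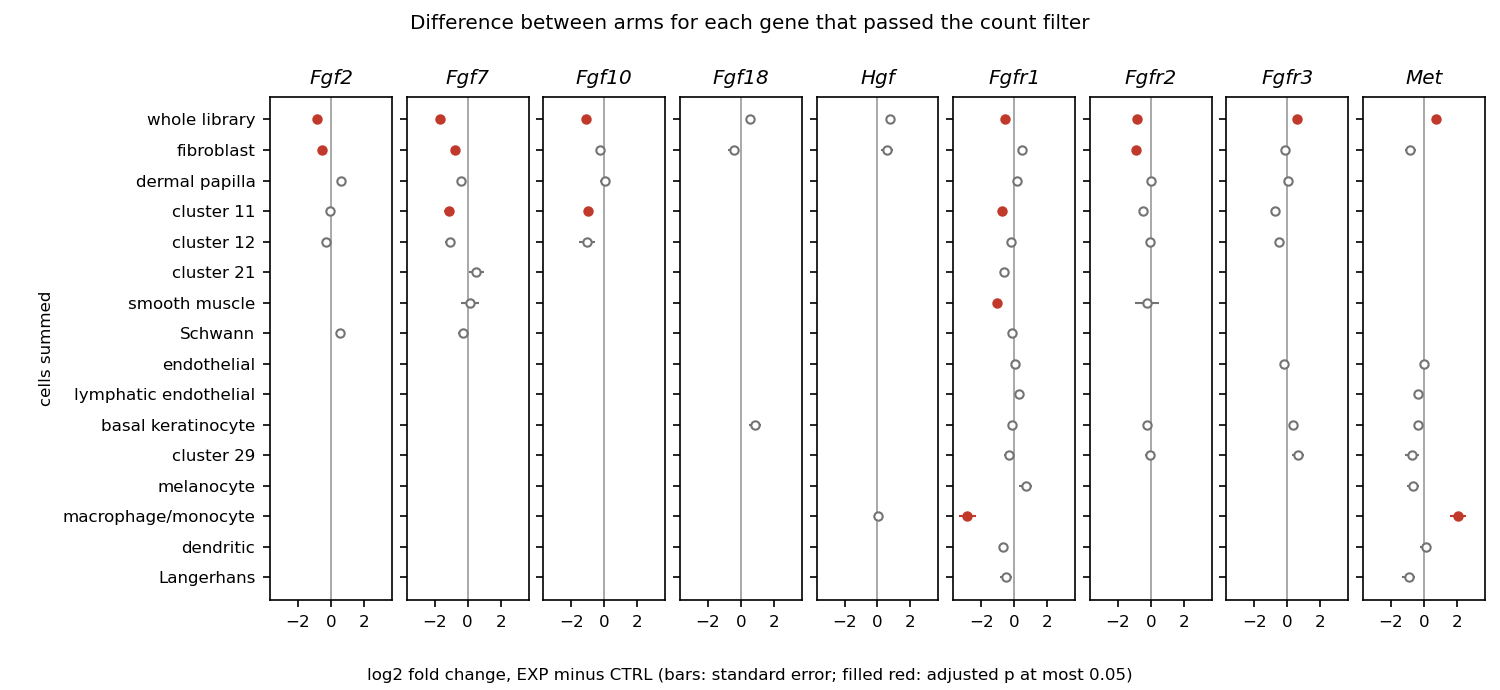
Log2 fold change of EXP against CTRL (x axis) for each of the 9 genes (panels) in whole libraries and in each class or cluster (rows) where the gene passed the count filter; bars are standard errors and filled red points have an adjusted p of at most 0.05. Fgf7, Fgf2 and Fgfr2 are filled on the lower side in fibroblast-like cells, Fgfr1 on the lower side in 3 classes, and Met on the higher side in macrophage- or monocyte-like cells.

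In fibroblast-like cells, the main mesenchymal source of Fgf7, the ligands Fgf7 and Fgf2 and the receptor Fgfr2 were lower in expanded skin. All 9 members passed the filter, 3 fell and 0 rose, while 34.5% of the 12338 genes tested changed in either direction and 17.2% fell. Fgf7 was at 65.5, 51.7, 74.0, 83.4 and 80.5 CPM in CTRL (libraries in the same order) and at 38.1, 22.4, 52.6, 75.0 and 55.3 in EXP. EXP was lower in 5 of 5 pairs of the same day and round, although the arms overlapped. The fitted difference was 1.73-fold (log2 -0.79 ± 0.20 SE, adjusted p 0.0103).

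The receptor Fgfr2 was at 57.9, 59.7, 55.8, 42.7 and 47.7 CPM in CTRL and at 50.4, 41.4, 31.0, 20.6 and 22.2 in EXP. It was lower in 5 of 5 pairs, 1.84-fold by the fit (log2 -0.88 ± 0.15 SE, adjusted p 0.00155). Fgf2 was at 13.4, 14.7, 17.9, 15.7 and 15.3 CPM in CTRL and at 13.1, 10.8, 13.2, 11.0 and 10.9 in EXP. The arms did not overlap, and the difference was 1.45-fold (log2 -0.54 ± 0.12 SE, adjusted p 0.00673). The Fgf2 call was lost after thinning (adjusted p 0.164) and when cells were clustered more finely, at resolution 2 (adjusted p 0.118). With that clustering the Fgf7 difference was larger, at -1.82 on the log2 scale, and Fgf10 passed the test (log2 -0.85, adjusted p 0.0401), in a fit that called 27.4% of genes. At that resolution a cluster of 844 cells (Tnc, Mmp3, Timp1), 652 of them of EXP, scored highest for the fibroblast markers. It was left unnamed and is not part of the class in these fits.

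Of the other members, Fgfr1 was at 166, 194, 185, 153 and 141 CPM in CTRL and at 175, 288, 237, 266 and 351 in EXP. It was higher in 5 of 5 pairs but did not pass the test (log2 0.47 ± 0.19 SE, adjusted p 0.0734), and it did with the mouse as the unit (log2 0.65, adjusted p 0.00099; 14 CTRL and 10 EXP mice, day 1 round 1 not being tagged by mouse). Mice were pooled within a library, so that they are not independent of it and p-values of this unit may be too small. The fit with mice also used only cells assigned to a mouse, 48.7% of fibroblast-like cells in the tagged libraries. In that fit 48.8% of genes were called, and Fgf7, Fgf2 and Fgfr2 were again lower by -0.91, -0.77 and -0.87. Met stood at 6.94 ± 2.44 CPM in CTRL and 4.15 ± 2.17 in EXP (adjusted p 0.067), and passed the test in the fit with pairs as a block (adjusted p 0.0357). Hgf stood at 5.10 and 9.49 CPM (adjusted p 0.228), and Fgf10, Fgf18 and Fgfr3 had adjusted p of 0.222, 0.342 and 0.63.

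**Figure D3:**
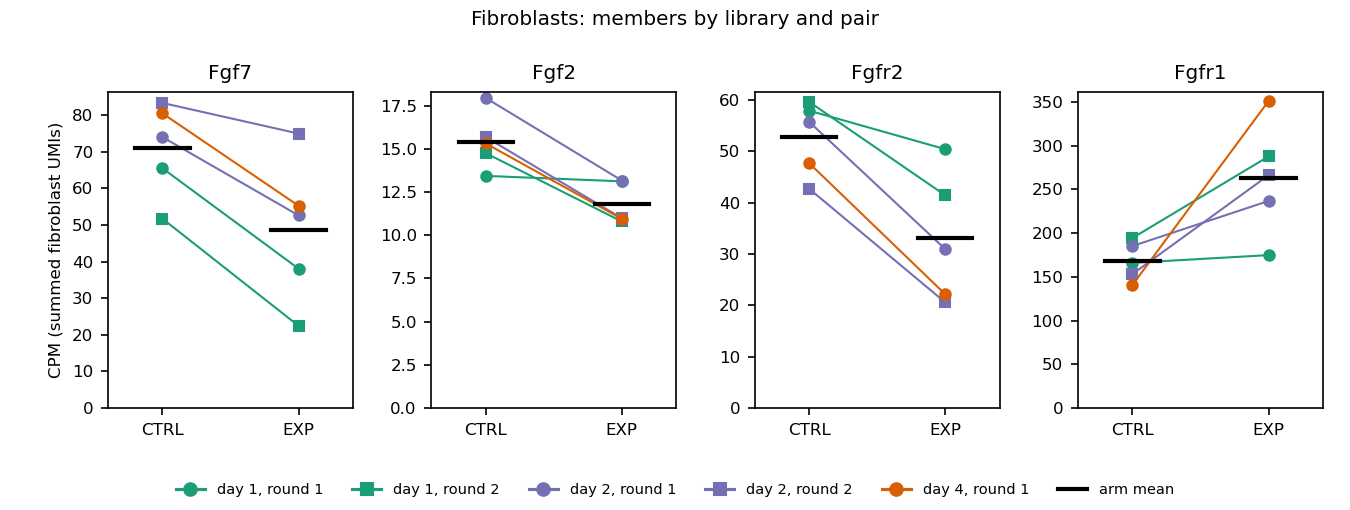
Level (y axis, CPM, linear from 0) of Fgf7, Fgf2, Fgfr2 and Fgfr1 in fibroblast-like cells of each library; lines join the CTRL and EXP library of 1 day and round, and black bars are arm means. The lines for Fgf7, Fgf2 and Fgfr2 run downward and those for Fgfr1 upward in 5 of 5 pairs.

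The class is a mixture of 6 clusters whose shares differed between arms. Cluster 0 (Cyp2f2, Glt8d2) held 34.4% of the class in a CTRL library and 6.72% in EXP, cluster 10 (Cpz, Col1a2) 15.8% and 1.58%, cluster 20 (Lgi2, Gpx3) 9.05% and 2.69%, cluster 19 (Cpz, Ctsk) 8.14% and 17.6%, cluster 1 (Ccl19, Cilp) 21.7% and 29.7%, and cluster 9 (Cadps, Igfbp2, Mme) 10.9% and 41.7%. In CTRL, Fgf7 was at 122 ± 14.6 CPM in cluster 20, 116 ± 20.4 in cluster 1, 89.0 ± 15.3 in cluster 10, 44.7 ± 5.03 in cluster 0, 41.0 ± 29.3 in cluster 19 and 17.4 ± 9.41 in cluster 9. Cluster 9, whose mean share was 10.9% in CTRL and 41.7% in EXP, thus had the lowest mean Fgf7 of the 6.

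Clusters 1, 9 and 19 had enough cells in both arms for a test by themselves, which was chosen after the data were seen. In cluster 1 Fgf7 fell from 116 to 82.4 CPM (log2 -0.68 ± 0.21 SE, adjusted p 0.0365) and Fgfr2 from 51.1 to 31.8 (log2 -0.70 ± 0.15 SE, adjusted p 0.00706), while 20.7% of genes were called. In cluster 9 Fgfr2 fell from 69.9 to 35.1 CPM (log2 -1.04 ± 0.20 SE, adjusted p 0.00242), Fgf2 fell from 20.5 to 14.0 (log2 -0.67 ± 0.23 SE, adjusted p 0.0466) and Fgfr1 rose from 176 to 335 (log2 0.84 ± 0.18 SE, adjusted p 0.00404), while 23.7% of genes were called. Fgf7 in cluster 9 was at 17.4 ± 9.41 CPM in CTRL and 34.7 ± 24.6 in EXP, which did not pass the test (log2 0.60 ± 0.31 SE, adjusted p 0.181). In cluster 19, with 4 EXP libraries, Fgfr1 was the 1 member past the filter and was not called (log2 -0.71 ± 0.52 SE, adjusted p 0.364), where 2.97% of genes were. Fgfr1 in cluster 1 stood at a log2 difference of -0.31 ± 0.21 (adjusted p 0.332), so that of these clusters its rise was called in cluster 9 alone; the difference between clusters was not tested. Fgfr2 was called lower in both clusters 1 and 9.

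Marker levels of the class moved with the arms. The summed level of its 8 fibroblast markers was 147366 ± 46107 CPM in CTRL and 61492 ± 25231 in EXP, with 1 of 8 markers higher, and that of 8 dermal papilla markers 25.2 ± 7.71 and 71.1 ± 28.7. Neutrophil markers ran from 0.741 to 3.33 CPM in CTRL and from 16.5 to 199 in EXP. Counts of 4 erythroid genes ran from 0.343 to 5643 CPM in CTRL and from 0.14 to 77230 in EXP, highest in the day 2 round 2 library of EXP. The part of these marker and erythroid shifts in the results was not tested. The calls of Fgf7, Fgf2 and Fgfr2 held in 10 of 10 fits that each left out 1 library, that library included. Such fits do not address shifts shared by all EXP libraries. After thinning to 2000 UMIs, cells with an Fgf7 UMI were 12.6% of fibroblast-like cells in CTRL and 7.54% in EXP (39.0% and 27.1% before thinning), against 0.189% and 0.076% of T cell-like cells, a class that should lack the gene. The median depth was 11137 and 17854 UMIs per fibroblast-like cell and 3558 and 5006 per T cell-like cell.

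In the remaining mesenchymal groups the same ligands and receptors were followed. In cluster 11 (Tnn, Tnfrsf11b, Coch, Spon1), 6 members passed the filter and 3 fell, against 9.08% of genes called and 4.87% lower. Fgfr1 was at 512, 522, 375, 321 and 352 CPM in CTRL and at 209, 256, 244, 220 and 320 in EXP. The arms did not overlap (log2 -0.73 ± 0.16 SE, adjusted p 0.0131), and the call was lost after thinning (adjusted p 0.0525) and with the mouse as the unit (adjusted p 0.266).

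Both mesenchymal ligands fell in cluster 11 too. Fgf7 was at 115, 45.02, 55.0, 31.7 and 60.9 CPM in CTRL and at 31.0, 29.8, 33.1, 12.6 and 23.4 in EXP, lower in 5 of 5 pairs (log2 -1.11 ± 0.30 SE, adjusted p 0.0351). Fgf10 was at 41.2, 27.9, 51.7, 28.0 and 25.3 CPM in CTRL and at 23.5, 29.2, 10.5, 13.4 and 6.68 in EXP, lower in 4 of 5 pairs (log2 -0.97 ± 0.28 SE, adjusted p 0.0445). These calls were weak: leaving out 1 library kept Fgf7 past the threshold in 3 of 10 fits and Fgf10 in 2 of 10, with adjusted p up to 0.111 and 0.121. With pairs as a block, Fgf10 had an adjusted p of 0.051. Erythroid genes summed to 1776 ± 2623 CPM in CTRL and 5.61 ± 6.48 in EXP in this cluster, and dermal papilla markers to 78.8 ± 56.5 and 244 ± 202; their part was not tested.

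Dermal papilla-like cells had 6 members past the filter and 0 called, where 6.08% of genes were called. Fgf2 was at 32.7, 31.7, 22.0, 47.9 and 31.6 CPM in CTRL and at 41.9, 55.8, 44.8, 86.1 and 51.5 in EXP, higher in 5 of 5 pairs without passing the test (log2 0.63 ± 0.21 SE, adjusted p 0.0977). With pairs as a block it passed (adjusted p 0.0275). Fgf7 was at 151 and 115 CPM (adjusted p 0.29), and Fgfr1, Fgfr2, Fgfr3 and Fgf10 had log2 differences of 0.19, 0.03, 0.06 and 0.02.

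Cluster 12 (Fmod, Cck, Kera, Tnmd) had 6 members past the filter and 0 called, where 2.63% of genes were called. Fgf7 was at 13.7 ± 1.58 CPM in CTRL and 6.0 ± 3.6 in EXP, with no overlap (log2 -1.06 ± 0.31 SE, adjusted p 0.0905). Fgf10 was at 13.3 ± 4.56 and 5.55 ± 6.37 CPM (adjusted p 0.246), and passed with pairs as a block (adjusted p 0.0473). In cluster 21, 2 members passed the filter and 0 were called, where 5.70% of genes were called. Fgfr1 there was at 303 ± 23.4 CPM in CTRL and 208 ± 36.7 in EXP, with no overlap of the arms (adjusted p 0.0578).

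Hgf in cluster 21 was at 24.0, 9.98, 11.5, 14.3 and 14.9 CPM in CTRL and at 54.8, 61.8, 27.2, 50.7 and 14.0 in EXP. It did not pass the filter on low counts, so it has no test, and EXP was higher in 4 of 5 pairs.

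In smooth muscle-like cells, which also carried the pericyte markers, the receptor Fgfr1 fell 2.09-fold (log2 -1.07 ± 0.17 SE, adjusted p 0.0017). It was at 109, 92.1, 51.3, 73.1 and 73.4 CPM in CTRL and at 68.2, 52.2, 27.6, 27.8 and 34.9 in EXP. EXP was lower in 5 of 5 pairs, and the call held in 10 of 10 fits without 1 library. This was 1 of 3 members past the filter, where 19.5% of genes were called and 10.7% were lower. The summed smooth muscle markers were at 17548 ± 2097 and 15650 ± 3707 CPM and the pericyte markers at 4532 ± 1141 and 4830 ± 1166. Erythroid genes summed to 1399 ± 3100 and 5.38 ± 4.03 CPM and neutrophil markers to 1.86 ± 1.56 and 206 ± 398, and their part was not tested. Fgf7 and Fgfr2 in this class had adjusted p of 0.875 and 0.865.

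Schwann-like cells, the glia of skin nerves, had Fgf2 at 53.1, 58.3, 55.8 and 25.2 CPM in CTRL and at 64.7, 75.9, 121, 68.5 and 37.9 in EXP (day 1 round 1 of CTRL had too few cells). EXP was higher in 4 of 4 pairs but did not pass the test (log2 0.57 ± 0.24 SE, adjusted p 0.459), and 0 of 3 members were called, where 0.0772% of genes were.

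In the endothelial-like and lymphatic endothelial-like classes no difference passed. Endothelial-like cells had 3 members past the filter and 0 called, where 12.7% of genes were called: Fgfr1, Fgfr3 and Met differed by 0.04 ± 0.17, -0.20 ± 0.21 and -0.03 ± 0.17 (log2 ± SE). Lymphatic endothelial-like cells, also at 12.7% of genes called, had Fgfr1 at 0.29 ± 0.18 and Met at -0.33 ± 0.28, with 0 of 2 called. Met in endothelial-like cells was at 20.7 ± 6.02 CPM in CTRL and 22.3 ± 4.49 in EXP.

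The receptors of these ligands were also followed in the epithelium. Cluster 6 (Krt24, Lhx2, Krt15, genes of the follicle bulge) made up 44.1% of the basal keratinocyte-like class in CTRL and 50.9% in EXP. The class therefore mixes follicle and other basal cells. In basal keratinocyte-like cells 5 members passed the filter and 0 were called, where 12.2% of genes were called. Fgfr2, the receptor of Fgf7 and Fgf10, was at 66.9 ± 16.4 CPM in CTRL and 57.3 ± 23.2 in EXP (log2 -0.26 ± 0.17 SE, adjusted p 0.345). Fgfr1 was at 90.8 ± 15.6 and 84.7 ± 20.5 CPM (log2 -0.15 ± 0.15 SE, adjusted p 0.521). Fgfr3 was at 42.8, 46.2, 13.2, 23.2 and 22.0 CPM in CTRL and at 57.5, 55.7, 33.0, 27.0 and 24.8 in EXP. EXP was higher in 5 of 5 pairs (log2 0.32 ± 0.13 SE, adjusted p 0.119).

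Met in basal keratinocyte-like cells was at 32.8, 48.7, 24.2, 29.5 and 45.4 CPM in CTRL and at 29.4, 35.5, 33.6, 22.1 and 27.0 in EXP, lower in 4 of 5 pairs (log2 -0.36 ± 0.17 SE, adjusted p 0.183). With the mouse as the unit, Fgfr3 was higher (log2 0.83 ± 0.23 SE, adjusted p 0.0163) and Met lower (log2 -0.89 ± 0.19 SE, adjusted p 0.00404) over 10 CTRL and 8 EXP mice, in a fit that called 20.9% of genes. Mice of 1 library share its preparation, which such a fit treats as independent. The fit also used only cells assigned to a mouse, 49.8% of this class in the libraries tagged by mouse. Neither gene was called with the library as the unit over all cells of the class. At resolution 2, with libraries as the unit, Met (log2 -0.68 ± 0.19 SE, adjusted p 0.0224) and Fgfr1 (log2 -0.64 ± 0.21 SE, adjusted p 0.0415) were called lower, where 25.5% of genes were called. The class was then 1 cluster of 1447 cells, and a cluster of 2105 cells that scored highest for the same markers was left unnamed.

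Suprabasal keratinocyte-like cells also carried the upper follicle markers, with a score of 0.970 against 0.870 for the suprabasal list, so that the 2 types are not separated here. The class had too few EXP libraries with enough cells for a test. Met there was at 25.7, 45.5, 36.3 and 33.1 CPM in 4 CTRL libraries and between 12.4 and 20.3 in 3 EXP libraries, without overlap. Fgfr3 was at 26.3 ± 13.6 and 34.9 ± 14.1 CPM and Fgfr2 at 24.6 ± 14.8 and 29.1 ± 10.4, with overlapping ranges.

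Fgf18 was at 8.57, 2.79, 0, 11.1 and 6.37 CPM in basal keratinocyte-like cells of CTRL and at 8.75, 13.2, 10.8, 25.7 and 9.82 in EXP. It was higher in 5 of 5 pairs and did not pass the test (log2 0.86 ± 0.36 SE, adjusted p 0.135). Within this class its UMIs lay mainly in cluster 6 (Krt24, Lhx2, Krt15, genes of the follicle bulge). Levels there were 13.4 ± 9.94 CPM in CTRL and 28.5 ± 13.9 in EXP, against 0.967 ± 1.77 and 2.45 ± 1.75 in cluster 7 (Fgfbp1, Pdk4). Fibroblast markers summed to 3474 ± 3545 CPM in basal keratinocyte-like cells of CTRL and to 260 ± 127 in EXP, and neutrophil markers to 5.4 ± 6.58 and 294 ± 406; their part in these values was not tested.

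In cluster 29, 4 members passed the filter and 0 were called, where 0.147% of genes were. Fgf2, which did not pass the filter there, was at 19.7, 30.7, 6.92 and 31.6 CPM in 4 CTRL libraries and at 0, 2.41, 0 and 4.31 in 4 EXP libraries, with no overlap and no test. The median depth of the cluster's cells was 15272 UMIs in CTRL and 3151 in EXP. Melanocyte-like cells had Met at 226, 44.4, 26.1 and 64.7 CPM in 4 CTRL libraries and at 77.1, 38.6, 55.4 and 28.8 in EXP (adjusted p 0.49), with 0 of 2 members called against 1.24% of genes.

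In macrophage- or monocyte-like cells the receptor Met rose and the receptor Fgfr1 fell. Of 3 members past the filter 2 were called, where 25.4% of genes were called. Met was at 11.7, 17.3, 4.46, 12.3 and 14.7 CPM in CTRL and at 10.0, 119, 49.6, 35.8 and 52.8 in EXP. It was higher in 4 of 5 pairs, 4.19-fold by the fit (log2 2.07 ± 0.51 SE, adjusted p 0.0145), and without the EXP library of day 1 round 2 it missed the threshold (log2 1.37, adjusted p 0.0555). Fgfr1 was at 116, 61.1, 81.0, 19.97 and 54.4 CPM in CTRL and at 44.2, 14.2, 2.83, 4.69 and 6.0 in EXP. It was lower in 5 of 5 pairs, 7.20-fold by the fit (log2 -2.85 ± 0.53 SE, adjusted p 0.00463), in all 10 fits without 1 library. Hgf in this class was at 7.50 ± 3.7 and 8.64 ± 3.19 CPM (log2 0.05 ± 0.26 SE, adjusted p 0.914).

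With the mouse as the unit, Met and Fgfr1 in macrophage- or monocyte-like cells differed by 1.98 ± 0.25 and -3.34 ± 0.41 (log2 ± SE) over 14 CTRL and 12 EXP mice, with adjusted p of 2.92e-07 and 2.89e-07, in a fit that called 48.2% of genes. After thinning to 2000 UMIs, cells with a Met UMI were 2.11% in CTRL and 8.26% in EXP (5.83% and 24.9% before thinning), against 0.14% and 0.0215% of T cell-like cells. Cells with an Fgfr1 UMI were 11.4% and 2.77% (25.1% and 7.12% before thinning), against 0.836% and 1.04% of T cell-like cells. The median depth was 6136 UMIs per macrophage- or monocyte-like cell in CTRL and 12261 in EXP.

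The mean shares of the clusters in the class differed between arms. Cluster 2 (Chil3, Ly6c2, Fcgr1), which carries Ly6c2, a marker of blood-derived monocytes, was 15.9% ± 19.9 of the class in CTRL and 79.6% ± 21.4 in EXP. Cluster 4 (Ccl24, C1qb, C1qc), which carries complement genes of tissue macrophages, was 72.5% ± 21.8 and 13.7% ± 19.4, and cluster 31 (Ccl8, C1qa) 11.6% ± 6.42 and 6.64% ± 2.73. The arms overlapped: cluster 2 held 350 of 686 cells of the class in day 2 round 2 of CTRL. In day 1 round 1 of EXP it held 60 of 139. Met was at 39.8 ± 18.6 CPM in cluster 2 of CTRL (n = 4) and 59.8 ± 46.2 in EXP, and at 8.18 ± 4.70 and 3.39 ± 1.63 (n = 3) in cluster 4. Fgfr1 was at 2.29 ± 2.68 and 3.22 ± 2.60 CPM in cluster 2, and at 75.1 ± 29.7 and 42.9 ± 39.5 in cluster 4.

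Tested by itself, a test chosen after the data were seen, cluster 2 gave a log2 difference of 0.80 ± 0.49 for Met (adjusted p 0.525) and -0.34 ± 0.69 for Fgfr1 (adjusted p 0.902), with 0 of 3 members called against 0.955% of genes. The differences of the class were thus not found within its larger EXP cluster at this precision, and cluster 4 had too few EXP libraries for a test. The 8 fibroblast markers summed to 457 to 2785 CPM in the class in CTRL and to 54.6 to 481 in EXP, with 0 of 8 higher in EXP, and neutrophil markers to 82.9 ± 36.4 and 940 ± 557. Their part in the class differences was not tested.

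**Figure D4:**
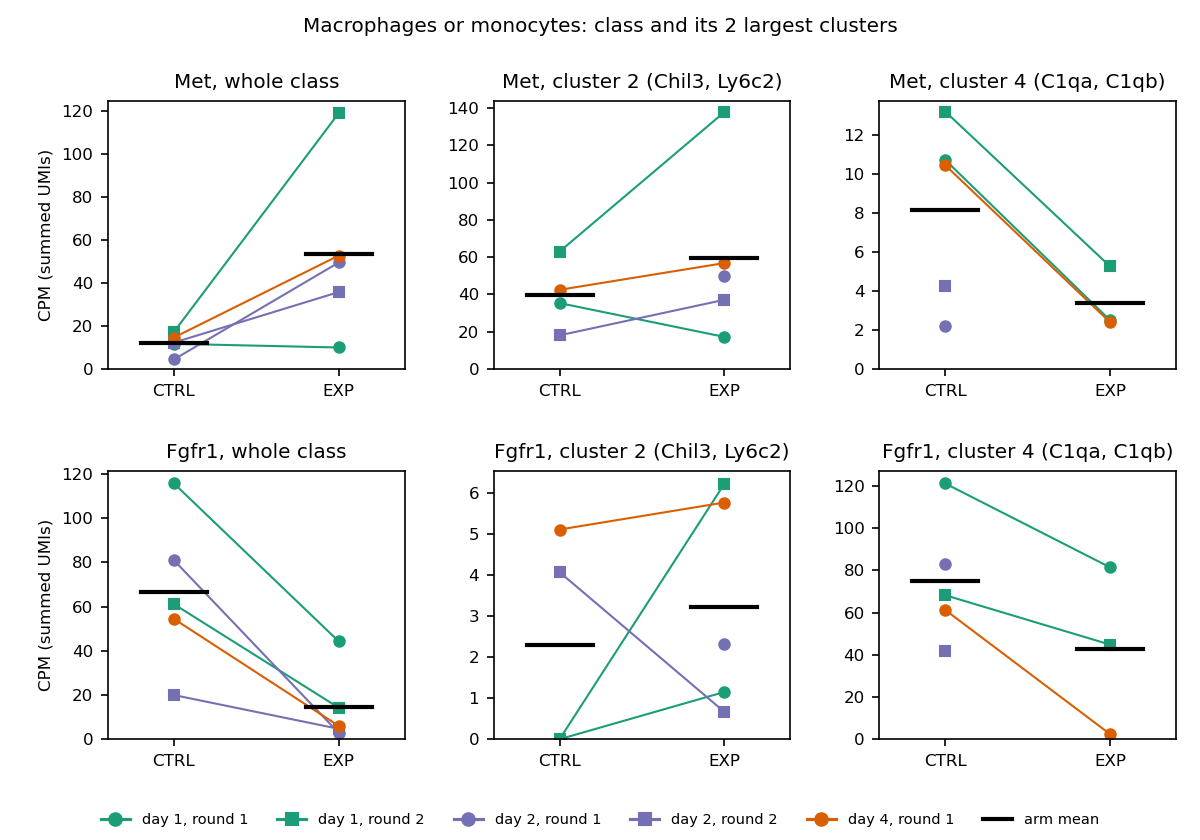
Level (y axes, CPM, linear from 0, scales differ by panel) of Met (top) and Fgfr1 (bottom) in macrophage- or monocyte-like cells as a whole and in clusters 2 and 4, by library; lines join libraries of 1 day and round, unjoined points lack a partner with enough cells, and black bars are arm means. Met means stand at 39.8 and 59.8 in cluster 2 and Fgfr1 means at 75.1 and 42.9 in cluster 4, while the whole class moves from 12.1 to 53.5 and from 66.4 to 14.4.

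Among the other antigen-presenting cells, dendritic-like cells had Fgfr1 at 58.2 ± 6.74 CPM in CTRL and 47.4 ± 27.3 in EXP (log2 -0.66 ± 0.22 SE, adjusted p 0.0652), with 0 of 2 members called where 15.2% of genes were. With the mouse as the unit Fgfr1 was lower there (log2 -0.98 ± 0.19 SE, adjusted p 0.000366, 14 CTRL and 9 EXP mice), in a fit that called 34.6% of genes. Langerhans-like cells had 0 of 2 members called where 6.56% of genes were, with Met at a log2 difference of -0.93 ± 0.41 (adjusted p 0.187).

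A small unnamed cluster held much of the Hgf of expanded skin. Cluster 35 (Mcpt8, a granule protease, with Hgf, Il4, Gzmb and Cd200r3) had 61 cells, 58 of EXP and 3 of CTRL. Hgf is among the genes that define it, so its level there is a description with no test, and the cluster was singled out after its values were seen. It held 499 of the 1346 Hgf UMIs of the EXP libraries (37.1%) and 9 of the 944 of CTRL (0.953%). Its Hgf level in EXP was 2102 CPM (95% exact Poisson interval 1922 to 2295, counting error only). Of the 58 EXP cells, 56 could be assigned to a mouse, and they came from 12 mice, so that the signal did not come from 1 animal.

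By library, cluster 35 held 0 of 142, 68 of 170, 166 of 387, 206 of 350 and 59 of 297 Hgf UMIs in EXP. With all cells, Hgf was at 2.43, 2.43, 3.22, 5.90 and 4.82 CPM in CTRL and at 3.34, 3.42, 9.77, 17.6 and 7.74 in EXP, higher in 5 of 5 pairs. Without cluster 35 the EXP values were 3.34, 2.05, 5.59, 7.28 and 6.21, higher in 4 of 5 pairs, and the means were 3.73 ± 1.49 and 4.89 ± 2.14 instead of 3.76 ± 1.54 and 8.38 ± 5.87. Neutrophil-like cells, which were also more frequent in EXP, held 34 Hgf UMIs there and 1 UMI in CTRL. Pooled over EXP this was 8.83 CPM (95% exact Poisson interval 6.12 to 12.3, counting error only). By library the level ran from 1.75 to 17.8 CPM in the 4 EXP libraries with enough cells.

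**Figure D5:**
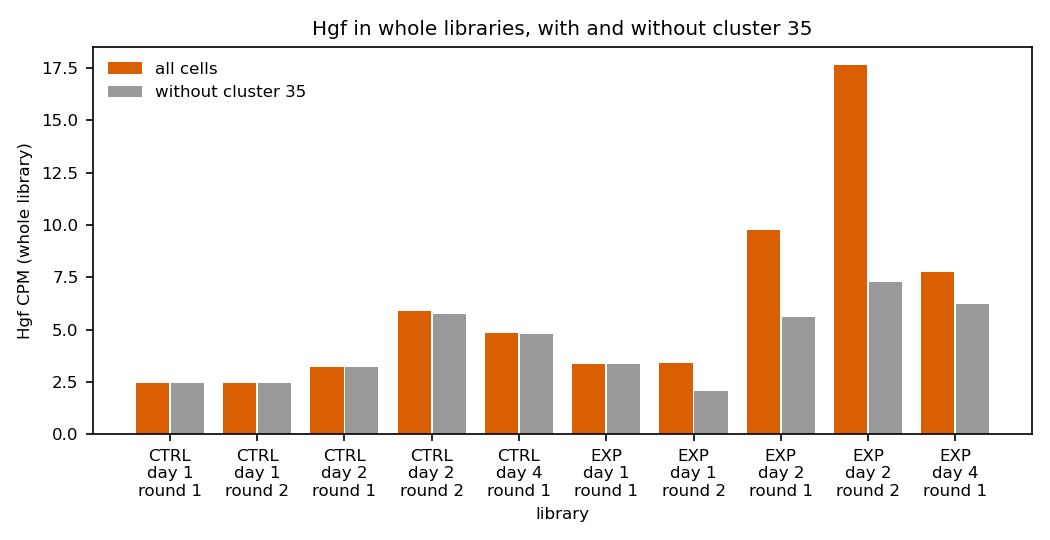
Hgf level of each library (y axis, CPM, bars from 0) with all cells in orange and without the 61 cells of cluster 35 in grey. The orange and grey bars are nearly equal in CTRL, and in EXP day 2 round 2 the level is 17.6 CPM with and 7.28 without these cells.

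The difference between arms was compared between days in 12 classes or clusters, as day 2 against day 1 and day 4 against day 1, with 1 library per arm on day 4 whose spread was taken from the other groups. Of 49 gene-by-class tests in each contrast 0 were called by edgeR, 4 in each had an unadjusted p under 0.05, and DESeq2 called 0. The background was also 0% of genes in each of these classes, apart from 0.15% in dendritic-like cells and 0.0232% in cluster 12, both for day 2. The smallest adjusted p was 0.715 for day 2 and 0.391 for day 4. The latter was Fgf7 in cluster 21 (log2 3.20 ± 0.84 SE), which was at 31.6 CPM in CTRL and 148 in EXP on day 4, and at 41.1 and 14.9 on day 1 in round 1. The other values with an unadjusted p under 0.05 were Fgf7 in cluster 21 on day 2 (log2 1.83) and in dermal papilla-like cells on day 2 (1.07), Fgf10 in cluster 11 on day 2 (-1.20), and Fgfr1 in dendritic-like cells on days 2 and 4 (-0.88 and -1.53), in fibroblast-like cells on day 4 (1.02) and in cluster 11 on day 4 (1.04). With this number of libraries no change of the members over days could be shown.

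The rest of the pathway was read from 6 lists of 93 genes: other ligands, other receptors and co-receptors, FGF binding and heparan sulfate, signalling adaptors, ERK feedback and target genes, and HGF-related factors. In fibroblast-like cells 63 were tested, 14 rose and 15 fell, where 34.5% of all genes were called, 17.2% higher and 17.2% lower. The ERK feedback and target list stood on the higher side, with 9 of 17 higher, 1 lower and a median log2 difference of 0.47, against 0.01 over all genes tested. The transcription factors Etv4 and Etv5, targets of ERK signalling, rose by 2.73 and 0.97 on the log2 scale, and Etv4 was at 0.673 ± 0.290 CPM in CTRL and 5.58 ± 2.96 in EXP. The phosphatases Dusp4 and Dusp6, which act on MAP kinases, rose by 2.05 and 1.01, and the inhibitors Spry4, Spry1, Spred3 and Spred2 by 1.00, 0.47, 0.90 and 0.52. Ier3 rose by 0.71, and Il17rd, a membrane inhibitor of FGF signalling, fell by 0.50. These genes respond to many ligands. In the same cells Fgf7, Fgf2 and Fgfr2 were lower, and Fgfr1 was higher in 5 of 5 pairs without passing the test by library.

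Among the heparan sulfate genes in fibroblast-like cells 7 of 20 fell and 3 rose. Sulf2, which removes sulfate groups from heparan sulfate, was at 313 ± 41.3 CPM in CTRL and 141 ± 77.8 in EXP (log2 -1.4 ± 0.25 SE, adjusted p 0.00158). Hpse (heparanase) and the glypican Gpc3 fell by 1.43 and 1.42 on the log2 scale, and the syndecans Sdc1 and Sdc4 rose by 1.21 and 0.65. Of 4 other ligands tested, 2 fell: Fgf12 and Fgf13, both intracellular members of the family, by 1.43 and 1.22. Of 5 other receptors and co-receptors 3 fell (Fgfr4, Flrt2 and Ncam1), by 0.62, 0.60 and 1.4. One of 11 adaptors fell, Frs2, which links the receptors to the ERK cascade, by 0.45. Of the HGF-related factors, Plaur, the urokinase receptor, rose by 0.75 and Lrig1, a membrane inhibitor of receptor tyrosine kinases, fell by 0.49.

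In the other classes the lists gave fewer calls. In basal keratinocyte-like cells 61 genes were tested, 2 rose and 5 fell, and the ERK list had 1 higher and 3 lower of 16; the count over the lists is near the 12.2% of all genes called in this class. Dusp4 and Dusp5 fell by 1.76 and 0.65, Il17rd by 0.66, the adaptor Gab1 by 0.71 and the syndecan Sdc4 by 0.46, while Etv4 rose by 0.62. Dusp4 was thus called lower here and higher in fibroblast-like cells, and the difference between the classes was not tested. In macrophage- or monocyte-like cells 45 were tested, 3 rose and 10 fell, near the 25.4% of all genes, among them Fgf11 (-3.26), Spry1 (-3.04), Sulf2 (-2.35) and Spred1 (-1.43) on the lower side and the syndecan Sdc1 (2.27) and the sulfotransferase Ndst1 (1.31) on the higher.

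In cluster 11, where 9.08% of all genes were called, 47 were tested, 3 rose and 10 fell, led by Etv1 (-1.27), Flrt2 (-1.25), Ncam1 (-1.11) and the syndecans Sdc3 (-1.09) and Sdc2 (-1.01). In smooth muscle-like cells 46 were tested, 2 rose and 7 fell, near the 19.5% of all genes: Sdc1 (2.08) and Sulf1 (1.06) rose, and Plau (-1.53), the urokinase that can activate Hgf, and Fgf13 (-1.21) fell. In dermal papilla-like cells, at 6.08% of all genes called, 48 were tested, 1 rose (Shc1, 0.61) and 2 fell (Gpc3, -1.01, and Ncam1, -0.58). In endothelial-like cells, at 12.7%, 44 were tested, 1 rose (Spred3, 0.78) and 5 fell, among them Flrt2 (-1.4) and Gab1 (-0.89). Sulf2, lower in fibroblast-like and macrophage- or monocyte-like cells, was higher in melanocyte-like cells (1.25).

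The genes whose level over the 16 classes of CTRL was most like that of each member were found among 12639 genes by Pearson's r of log2(CPM + 1), as a description with no p; the classes share libraries and depth. Fgf7 was nearest to Prrx2, Spon1 and Slit2 (r = 0.953, 0.95 and 0.949), and Fgf2 to Col14a1, Tmem119 and Islr (0.972, 0.948 and 0.935), all of them genes of mesenchymal cells. Fgf10 was nearest to Tnmd, Twist2 and the agouti gene a (0.935, 0.920 and 0.918), and Fgf18 to Cep164, Fbxl22 and Nexn (0.865, 0.848 and 0.846). Fgfr2 was nearest to Hoxc8, Irx2 and Hoxc6 (0.953, 0.952 and 0.944) and Fgfr3 to Hoxa5, Hoxa7 and Heph (0.922, 0.908 and 0.898). Fgfr1 was nearest to Msantd3, Mex3d and Copz2 (0.879, 0.835 and 0.834), Hgf to Ccl2, Klf2 and Csrnp1 (0.832, 0.808 and 0.777), and genes near Met were Nat9 and Coasy (0.821 and 0.732).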

How the data were processed

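The 10 mRNA libraries of mouse skin were used, and the 8 hashing samples only for the mouse of each cell. The deposited matrices hold whole-number UMI counts for each gene in each barcode; Cell Ranger 6.1.2 and build mm10 are named in the submitters' processing notes. One pair of titles (day 1 round 2 CTRL) was told apart by library type and library name. Barcodes needed 200 genes, 500 UMIs and a mitochondrial share of 10% or less, and 1286 doublets (Scrublet in scanpy 1.11.5, 0.208% to 3.13% of a library, or several hashtags) were removed. Cells were clustered (2000 variable genes, 30 components, Leiden resolution 1, leidenalg 0.10.2) and named from marker lists; the details of naming were set while clusters were examined.

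Counts were summed per class and library (at least 20 cells, 4 libraries per arm) and tested with edgeR 4.0.16 (quasi-likelihood test, TMM, filterByExpr, day as covariate), with Benjamini-Hochberg adjustment over all genes tested; R was 4.3.3. The script was tested on simulated data. Each library pools mice, so p-values by library measure the spread between pools; with the mouse as the unit, mice that share a library are treated as independent. Alternatives were DESeq2 1.42.0, no filter, thinning, 5% mitochondrial UMIs, resolution 2, the mouse as the unit, each library left out, and the replicate block. The round number marks a shared sequencing round per the labels, and same-round libraries deviated together (r = 0.563 on day 1 and 0.343 on day 2 over 16618 genes). The pairs were therefore treated as real in the counts of pairs and in the replicate block. The main fit had day as its only covariate and did not model them.

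Members, lists and tests were chosen with earlier results of these data known. Members are named by class, low levels often only in the plot of the 17 classes and clusters tested or not at all, at most 6 list genes per class by largest change, and for each member the 3 genes with the most similar pattern; further list genes of fibroblast-like cells are named to describe a list. Thinning left out 2497 CTRL and 1050 EXP cells below 2000 UMIs. Some genes that these rules select are not reported here.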

Additional observations from a re-analysis of the deposited data

Results flagged for a closer look

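Of 134 groups of 4 or 5 libraries, 9 had a library far from the rest by Dixon's criterion, where chance gives about 1 in 20. In fibroblast-like cells Fgfr3 stood at 4.00 CPM in the day 1 round 2 library of CTRL (others 2.37 to 2.62) and at 4.46 in the EXP library of the same round (others 2.24 to 2.74), and Met at 11.2 in day 2 round 1 of CTRL (others 5.18 to 6.58). In macrophage- or monocyte-like cells Fgfr1 stood at 44.2 CPM in day 1 round 1 of EXP (others 2.83 to 14.2). In basal keratinocyte-like cells Fgf18 stood at 25.7 CPM in day 2 round 2 of EXP (others 8.75 to 13.2). In Schwann-like cells Fgf2 stood at 25.2 CPM on day 4 of CTRL (others 53.1 to 58.3). In cluster 12, day 1 round 1 of EXP had Fgf10 at 16.9 CPM (others 2.40 to 3.44) and Fgfr2 at 46.2 (others 16.5 to 23.2). In cluster 29 Fgfr3 stood at 125 CPM in day 1 round 2 of EXP (others 28.7 to 42.9).

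Some members moved in opposite directions in 2 classes in every one of the 5 pairs, which was not tested as a difference. They were picked for this pattern, and the share of all genes that show it is not given. Fgf2 had a log2 difference of 0.63 in dermal papilla-like cells, -0.30 in cluster 12 and -0.54 in fibroblast-like cells. Fgfr1 had 0.47 in fibroblast-like cells, -0.73 in cluster 11, -0.63 in cluster 21, -2.85 in macrophage- or monocyte-like cells and -1.07 in smooth muscle-like cells. Fgfr3 had 0.32 in basal keratinocyte-like cells and -0.75 in cluster 11. Both Fgfr3 values were not called, nor were Fgf2 in dermal papilla-like cells and cluster 12 or Fgfr1 in fibroblast-like cells and cluster 21.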

How the results depend on the processing

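Of 825 alternative values, 746 kept their direction and their side of the threshold, 47 kept the direction and missed the threshold, 29 newly passed it and 3 reversed; 15 of the 58 gene-by-class pairs lay within 1 SE of 0 and were left out. The 9 calls within classes became 19 without the count filter, 4 after thinning to 2000 UMIs, 5 with each cluster by itself (chosen after seeing the data), 12 with DESeq2, 12 at resolution 2, 11 with the replicate block, 9 with the mouse as the unit, 9 with units of 50 or more cells (chosen after seeing the data) and 8 at 5% mitochondrial UMIs, and ran from 7 to 11 when each library was left out. The 7 calls in whole libraries became 8 with DESeq2, 5 after thinning, 6 without the filter and 7 with the replicate block, and ran from 5 to 6 when each library was left out. The 0 calls of the arm by day comparison became 2 without the filter. The block ended the call of Fgf10 in cluster 11 and gave calls for Met in fibroblast-like cells, Fgf10 in cluster 12 and Fgf2 in dermal papilla-like cells. The calls with the mouse as the unit were a different set, from the cells assigned to a mouse only. In the tagged libraries these were 48.7% of fibroblast-like, 49.8% of basal keratinocyte-like, 57.0% of cluster 11 and 99.8% of dendritic-like cells. Fgfr1, Fgf7 and Fgf10 in cluster 11 were not called, and Fgfr1 in smooth muscle-like cells had no such test. Calls were gained for Fgfr1 in fibroblast-like and dendritic-like cells and for Fgfr3 and Met in basal keratinocyte-like cells. Reversed were Fgf7 in cluster 21 (-0.09 without the day 4 library of CTRL and -0.10 without that of EXP, from 0.52, within a range of -0.10 to 0.78 over the 10 fits) and Fgfr1 in lymphatic endothelial-like cells after thinning (-0.028, from 0.29). The causes were not tested. Day 4 had 1 library per arm, and each library pools mice, so that depth and the number of pools limit small differences of the low genes Hgf, Fgf18 and Fgfr3.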
